A study of Homo sapiens with 4 samples.

Results

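Chromosomes 17, 19 and 22 are among the chromosomes of the human genome that carry most protein-coding genes for their length. The regions described here are the γH2AX peaks on these 3 chromosomes that lie more than 1 Mb from a chromosome end and more than 3 Mb from the centromere. They number 3686 of 27296 peaks in lipid overload (13.5%) and 988 of 8542 in mock (11.6%). The chromosomes were selected on the measured values, their number of peaks per Mb in both lists, so the densities are given as a description, without a test.

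The cells were HepG2, a line grown out of a human liver cancer, and γH2AX was mapped in them by CUT&Tag, with 4 samples in 4 groups of 1 sample each. The lipid overload group is labelled HEPG2-PAOA with a lipid overload-induced treatment. The mock group is labelled HEPG2-DMSO with a mock-induced treatment. Both were grown in DMEM with 10% fetal bovine serum, and each assay used 100000 cells. Neither dose nor time is stated in the labels, the matching IgG samples of both treatments were not analysed here, and no other genotype or cell line enters the comparison. A peak list holds no RNA levels, so the identity of the cells was not checked against marker genes. HepG2 cells are aneuploid, and chromosome copy number was not measured here.

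γH2AX is the histone variant H2AX carrying a phosphate on a serine of its tail, which kinases of the DNA damage response place on chromatin around double-strand breaks. It is also found at active genes, where transcription strains DNA and topoisomerases cut it to relieve the strain. CUT&Tag brings a transposase to the antibody on chromatin, and the enzyme cuts open DNA more readily than closed DNA, so promoters and other open sites are tagged easily. Gene-rich chromosomes lie towards the centre of the nucleus, replicate early, are rich in G and C, and hold many short housekeeping genes with CpG-island promoters. They also hold tandem families that most cell types keep silent, such as keratins, kallikreins and immune receptors.

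Each treatment has 1 library, so no difference could be checked against replicates. Intervals are 95% and cover counting error only, exact Poisson for numbers and ratios to length and exact binomial for shares. The lowest background in the lists, taken as that of the genome and as a sign of depth, was 0.289 fragments over a site in lipid overload and 0.121 in mock. The sources used here do not say what the caller took as control, and if it was IgG, this and the local backgrounds below would reflect the IgG library. The word "only" means that the other list holds no peak there, which at these depths does not show that the mark is absent. The height of a peak is given here as fragments over its summit, recovered from the fold and p value that the authors deposited for it. A gene end reaches 1 kb out from and 1 kb into a protein-coding gene at its start or finish, and a gene is called marked when a peak overlaps one of its ends.

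The sequences below are the 250 bases before the annotated start of 9 genes, 5′ to 3′, from RefSeq on GRCh38.p14. They are shown because the gene ends that carry peaks and those that do not differ in these letters. For each chromosome the first gene is the best-ranked with a start peak in both lists, the second the best-ranked with a start peak in lipid overload only, and the third the first along the chromosome of a family with few peaks, among genes with a RefSeq start. Capitals mark the CCAAT box, the GC box (GGGCGG), the TATA box (TATAAA) and the ETS, CRE, AP-1, NRF1 and YY1 motifs described with their shares further on, on either strand. A CCAAT box of the other strand reads ATTGG, and such a GC box reads CCGCCC. None of these motifs contains another, and neighbouring copies may share letters. The intervals are chr17:59155496-59155745 (plus strand) for PRR11, chr17:42154990-42155239 (minus) for RAB5C, chr17:40703753-40704002 (minus) for KRT24, chr19:44891004-44891253 (plus) for TOMM40, chr19:14496128-14496377 (minus) for GIPC1 and chr19:41549268-41549517 (plus) for CEACAM21. On chromosome 22 they are chr22:38705694-38705943 (plus) for GTPBP1, chr22:19122413-19122662 (minus) for DGCR2 and chr22:39096994-39097243 (plus) for APOBEC3H.
PRR11: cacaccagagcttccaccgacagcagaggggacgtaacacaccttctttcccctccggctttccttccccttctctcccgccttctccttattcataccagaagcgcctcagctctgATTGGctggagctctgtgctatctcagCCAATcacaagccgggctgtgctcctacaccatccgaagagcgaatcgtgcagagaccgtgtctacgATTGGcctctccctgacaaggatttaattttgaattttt
RAB5C: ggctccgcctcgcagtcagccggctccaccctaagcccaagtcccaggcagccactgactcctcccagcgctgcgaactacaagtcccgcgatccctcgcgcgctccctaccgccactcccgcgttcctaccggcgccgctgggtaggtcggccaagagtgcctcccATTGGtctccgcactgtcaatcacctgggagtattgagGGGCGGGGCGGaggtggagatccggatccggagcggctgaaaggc
KRT24: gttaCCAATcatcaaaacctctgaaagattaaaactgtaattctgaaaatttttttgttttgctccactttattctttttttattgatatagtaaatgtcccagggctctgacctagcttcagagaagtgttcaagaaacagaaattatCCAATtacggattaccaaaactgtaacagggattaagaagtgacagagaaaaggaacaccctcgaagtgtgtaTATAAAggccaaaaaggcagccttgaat
TOMM40: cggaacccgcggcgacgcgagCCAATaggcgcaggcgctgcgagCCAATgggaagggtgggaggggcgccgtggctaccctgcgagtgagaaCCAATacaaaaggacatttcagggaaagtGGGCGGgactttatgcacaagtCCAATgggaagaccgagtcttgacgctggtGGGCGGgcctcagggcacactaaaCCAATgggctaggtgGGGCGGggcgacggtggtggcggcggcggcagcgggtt
GIPC1: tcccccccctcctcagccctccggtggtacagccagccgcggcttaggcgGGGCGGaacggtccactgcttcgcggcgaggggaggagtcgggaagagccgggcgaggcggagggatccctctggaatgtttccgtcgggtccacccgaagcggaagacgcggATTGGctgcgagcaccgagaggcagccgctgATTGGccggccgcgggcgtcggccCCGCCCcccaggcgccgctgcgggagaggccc
CEACAM21: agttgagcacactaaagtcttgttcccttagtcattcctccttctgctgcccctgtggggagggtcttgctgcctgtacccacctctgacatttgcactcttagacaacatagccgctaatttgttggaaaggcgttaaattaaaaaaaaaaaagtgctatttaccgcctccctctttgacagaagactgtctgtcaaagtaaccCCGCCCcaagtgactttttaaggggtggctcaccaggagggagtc
GTPBP1: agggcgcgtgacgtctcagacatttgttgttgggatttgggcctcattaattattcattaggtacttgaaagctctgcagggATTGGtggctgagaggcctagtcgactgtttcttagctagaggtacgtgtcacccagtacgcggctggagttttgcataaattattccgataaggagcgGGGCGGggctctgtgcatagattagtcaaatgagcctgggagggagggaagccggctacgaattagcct
DGCR2: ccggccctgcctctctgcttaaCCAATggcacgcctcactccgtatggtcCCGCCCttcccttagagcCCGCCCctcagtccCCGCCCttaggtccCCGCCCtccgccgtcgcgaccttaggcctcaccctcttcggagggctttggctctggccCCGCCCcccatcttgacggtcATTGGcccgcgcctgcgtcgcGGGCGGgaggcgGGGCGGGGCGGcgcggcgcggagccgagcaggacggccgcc
APOBEC3H: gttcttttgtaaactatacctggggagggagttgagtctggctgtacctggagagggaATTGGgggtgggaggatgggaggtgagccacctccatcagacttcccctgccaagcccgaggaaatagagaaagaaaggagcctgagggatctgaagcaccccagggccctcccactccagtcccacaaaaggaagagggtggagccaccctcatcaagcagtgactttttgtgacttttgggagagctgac

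TOMM40, the channel of protein import into mitochondria, has 5 CCAAT and 3 GGGCGG boxes in this stretch, a G+C content of 64.8% and a CpG content of 0.946 of that expected from its C and G. DGCR2, an adhesion receptor gene of the DiGeorge region, has 8 GGGCGG boxes, and GIPC1, a PDZ adaptor of membrane traffic, has 2. PRR11, a cell cycle gene, has 3 CCAAT boxes and no GGGCGG box. The unmarked starts differ mainly in CpG: the ratio was 0.264 at the keratin gene KRT24, 0.285 at CEACAM21, of the carcinoembryonic antigen family, and 0.0539 at APOBEC3H, an antiviral cytidine deaminase. KRT24 also has a TATAAA box close to its start. Among the marked genes the ratio ran between 0.668 at PRR11 and 0.946 at TOMM40.

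Peak density was highest on chromosome 19 in both conditions. Over the 3 chromosomes there were 23.1 peaks per Mb in lipid overload (22.3 to 23.8) and 6.19 in mock (5.81 to 6.58). The other chromosomes, under the same distances, had 8.24 and 2.63 peaks per Mb, so the ratio was 2.80 in lipid overload and 2.36 in mock. Chromosome 19 had 32.4 peaks per Mb in lipid overload and 8.93 in mock, from 1641 and 452 peaks. Chromosome 22 had 19.2 and 5.17, from 648 and 175 peaks. Chromosome 17 had 18.6 and 4.80, from 1397 and 361 peaks. Among 23 chromosomes, 19, 22 and 17 had the 3 highest densities in lipid overload, in this order. In mock chromosomes 19 and 22 again led, and chromosome 17 ranked 4. Chromosomes 4, 13 and 18, which are poor in genes, had 2.87 peaks per Mb in lipid overload and 1.14 in mock.

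The ratio in gene density was close to that in peak density. The 3 chromosomes held 2837 protein-coding genes in 160 Mb, or 17.8 per Mb, against 6.19 per Mb on the other chromosomes, a ratio of 2.87. Per coding gene, lipid overload had 1.299 peaks on these chromosomes (1.26 to 1.34) and 1.33 on the others. Mock had 0.348 peaks per coding gene (0.327 to 0.371) and 0.424 on the others. The lipid-overload ratio of gene-rich to other chromosomes was thus 0.976 per gene, and that of mock 0.821. Chromosome 22 stood apart, with 1.67 lipid-overload and 0.452 mock peaks per gene, against 1.25 and 0.322 on chromosome 17 and 1.24 and 0.340 on chromosome 19. Chromosome 20, which has fewer genes per Mb, had 1.78 and 0.539, and chromosomes 4, 13 and 18 had 0.783 and 0.312.

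**Figure D1:**
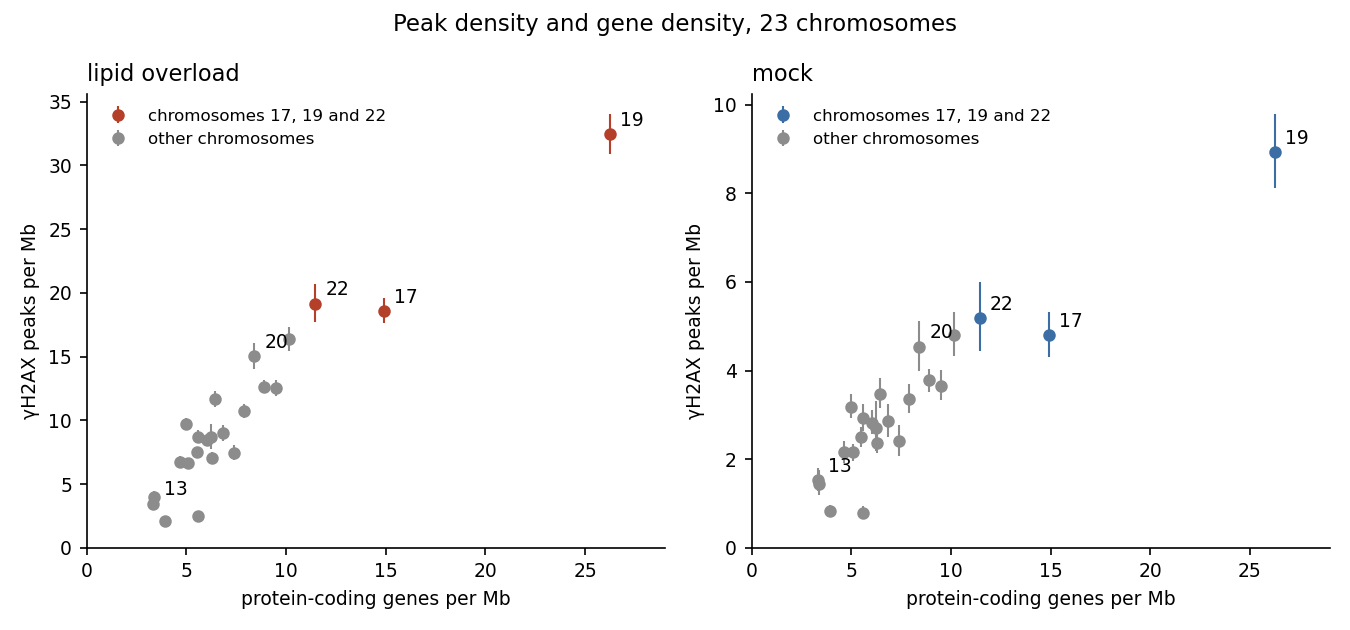
Peaks per Mb (vertical axis) against protein-coding genes per Mb (horizontal axis) for 23 chromosomes, lipid overload on the left and mock on the right, with 95% Poisson intervals as bars. Chromosome 19 lies farthest out on both axes, at 32.4 peaks per Mb in lipid overload and 8.93 in mock, and chromosome 20 is labelled for comparison.

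The chromosome arms were alike on chromosome 17 and differed on chromosome 19. The short arm 17p had 19.5 peaks per Mb in lipid overload and 4.79 in mock, and the long arm 17q had 18.2 and 4.80. On 19p there were 36.5 and 10.0 peaks per Mb, and on 19q 29.2 and 8.09, although 19q has slightly more genes per Mb (26.8, against 25.5 on 19p). The long arm of chromosome 22 had 19.8 and 5.15. Its short arm contributed 2 windows of 1 Mb with no coding gene, and these held 17 lipid-overload and 11 mock peaks.

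Along each chromosome the peaks were grouped in gene-dense stretches. Of 160 windows of 1 Mb, the median held 19.5 lipid-overload peaks and 5 mock peaks, and the fullest held 71 and 24. No lipid-overload peak was listed in 5 windows and no mock peak in 9. Elsewhere the median of 2590 windows was 4 and 1. Across the windows of the 3 chromosomes the peak number followed the number of coding genes, with a Spearman correlation of 0.815 in lipid overload and 0.646 in mock. Within chromosomes it was 0.829 and 0.671 on 17, 0.676 and 0.413 on 19, and 0.813 and 0.449 on 22. Windows of one chromosome share a library and neighbouring ones share base composition, so these are descriptions across windows.

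**Figure D2:**
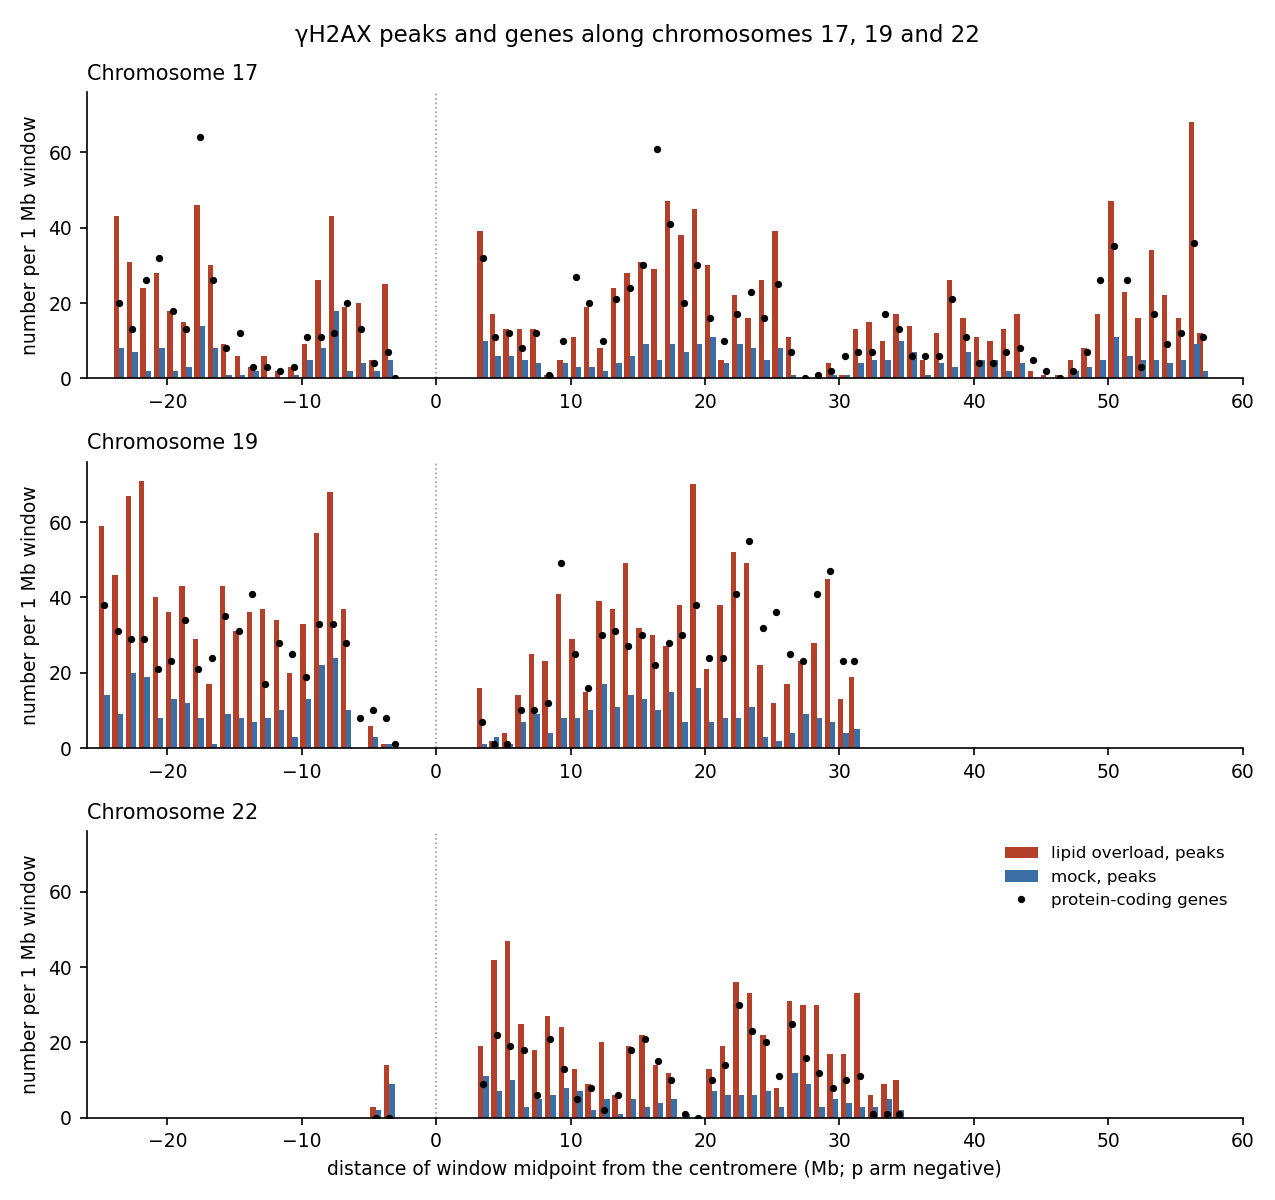
Peaks per 1 Mb window (bars, lipid overload left of mock) and protein-coding genes per window (black points) along chromosomes 17, 19 and 22, against the distance of the window's midpoint from the centromere in Mb. Windows within 3 Mb of the centromere and the last 1 Mb of each chromosome are left out. Lipid-overload peaks reach 68 in a window of 17q, 71 in one of 19p and 47 in one of 22q.

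The densest window of chromosome 17 lay at 81 to 82 Mb on 17q and held 68 lipid-overload and 9 mock peaks among 36 coding genes. Its best-ranked gene-end peaks were at CEP131, a centrosome gene, with 28 fragments in lipid overload and 6 in mock, and at the neighbours ARL16 and HGS, with 23 each in lipid overload and none listed in mock. HGS encodes an endosomal sorting protein. The next held 47 lipid-overload peaks, at 42 to 43 Mb with 9 in mock and 41 genes, and at 75 to 76 Mb with 11 in mock and 35 genes. In the window at 42 to 43 Mb, STAT3, a transcription factor of cytokine signalling, had 41 fragments in lipid overload and 10 in mock, and EZH1, a histone methyltransferase, 27 and 4. The fewest lipid-overload peaks among windows with at least 10 coding genes were 5, with 4 in mock, both at 34 to 35 Mb and at 46 to 47 Mb. The first of these windows holds the chemokine genes CCL2, CCL7, CCL11, CCL8, CCL13 and CCL1, none of which had a gene-end peak. Its other genes CCT6B and ZNF830 had 5 fragments each in lipid overload.

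On chromosome 19 the window at 4 to 5 Mb of 19p held 71 lipid-overload and 19 mock peaks among 29 genes. HDGFL2, a chromatin protein of the hepatoma-derived growth factor family, had 60 fragments there in lipid overload and 22 in mock, and TNFAIP8L1 had 32 in lipid overload only. The window at 45 to 46 Mb held 70 and 16 peaks among 38 genes, with 57 and 10 fragments at RELB, an NF-κB subunit, and 40 and 15 at the adjoining ends of TRAPPC6A and BLOC1S3. The window at 21 to 22 Mb held 6 and 3 peaks among 10 genes, all of them zinc finger genes. The best-ranked of these were ZNF714 with 10 and ZNF493 with 9 fragments in lipid overload only, while ZNF430 had 6 in lipid overload and 4 in mock. The window next to it towards the short arm's end, at 20 to 21 Mb, holds 8 coding genes and no peak in either list.

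Chromosome 22 was densest at 20 to 21 Mb, within the region deleted in DiGeorge syndrome, with 47 lipid-overload and 10 mock peaks among 19 genes. CRKL, a signalling adaptor, had 14 fragments there in lipid overload and 6 in mock. The window at 19 to 20 Mb held 42 and 7 peaks among 22 genes, with 24 and 7 fragments at CLTCL1, a clathrin heavy chain, and 18 and 8 at HIRA, a histone chaperone. The window at 40 to 41 Mb held 8 and 3 peaks among 11 genes, with 19 fragments at RBX1, a ubiquitin ligase subunit, and 16 at MRTFA, a cofactor of serum response factor, both in lipid overload only. Towards the end of 22q, windows with 1 coding gene each still held peaks: 6 in lipid overload and 3 in mock at 47 to 48 Mb, and 9 and 5 at 48 to 49 Mb.

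Windows with like numbers of genes differed in their peaks. The window at 41 to 42 Mb of 17q, which includes keratin genes, holds 61 coding genes and had 29 lipid-overload and 5 mock peaks, with 14 genes marked in lipid overload and 3 in mock. The window at 7 to 8 Mb of 17p holds 64 coding genes and had 46 and 14 peaks, with 44 and 10 genes marked. Over all coding genes of the genome 43.4% were marked in lipid overload and 13.4% in mock. Where windows of like gene number were set side by side, the densities on gene-rich and other chromosomes were close for crowded windows. With 30 or more coding genes there were 1.12 lipid-overload and 0.272 mock peaks per gene on the 3 chromosomes, against 1.07 and 0.270 elsewhere. With 20 to 29 genes there were 1.24 and 0.312, against 1.08 and 0.312. With 10 to 19 genes there were 1.51 and 0.457, against 1.31 and 0.378, and with 5 to 9 genes 1.65 and 0.473, against 1.35 and 0.435. Sparse windows were further apart: with 1 to 4 genes there were 2.81 and 1.05 peaks per gene on the 3 chromosomes, in 20 windows, against 1.54 and 0.597 elsewhere. In this class chromosome 17 had 1.97 and 0.706 in 13 windows, chromosome 19 3 and 2 in 2 windows, and chromosome 22 7.5 and 2.67 in 5 windows.

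By place, peaks at gene ends were 1.13 times as dense in lipid overload and 0.980 times in mock as on other chromosomes, for the bases available, and peaks away from gene ends differed more. Gene ends make up 6.30% of the bases on the 3 chromosomes and 2.26% elsewhere. They held 1300 lipid-overload peaks (35.3%, 33.7 to 36.8) and 310 mock peaks (31.4%, 28.5 to 34.4), where the shares on other chromosomes were 31.5% and 27.1%. Per Mb of gene end that is 129 peaks in lipid overload (122 to 136) and 30.8 in mock (27.5 to 34.4), against 115 and 31.4 elsewhere. Away from gene ends there were 15.9 and 4.53 peaks per Mb, against 5.78 and 1.96 elsewhere, a ratio of 2.76 in lipid overload and 2.31 in mock. Inside coding genes the densities were 18.2 and 5.16, against 7.27 and 2.29. In lncRNA genes they were 13.5 and 4.34, against 4.71 and 1.74. Outside any gene they were 12.8 and 3.37, against 4.46 and 1.62.

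**Figure D3:**
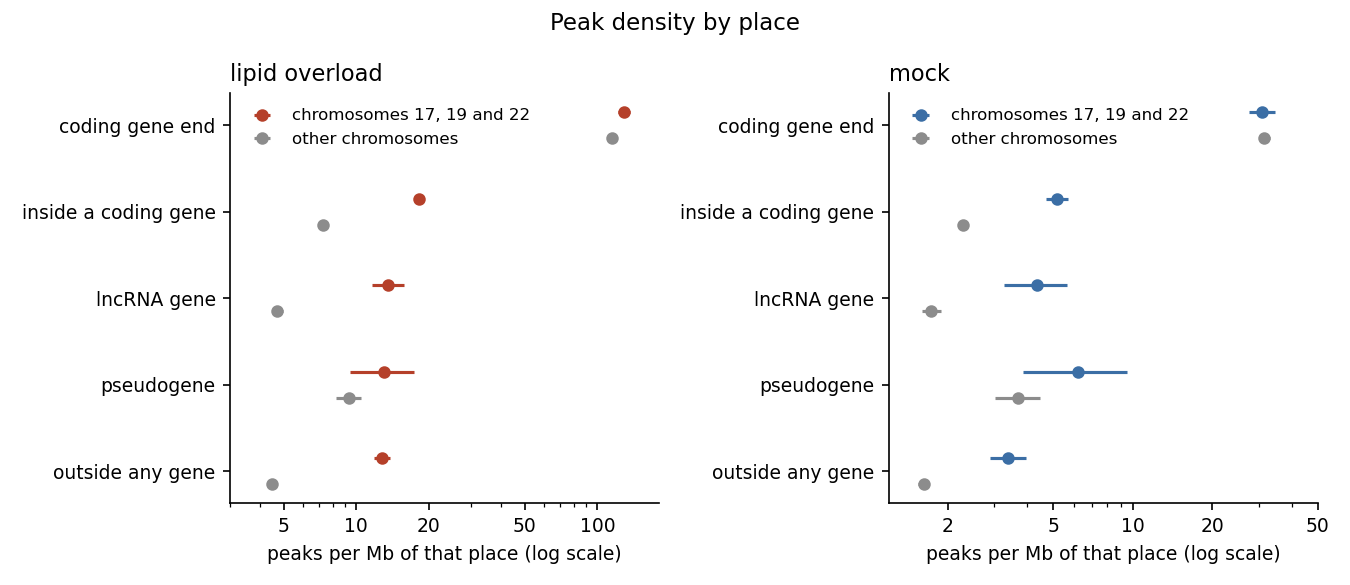
Peaks per Mb of each place (log scale) on chromosomes 17, 19 and 22 (coloured) and on the other chromosomes (grey), lipid overload on the left and mock on the right, with 95% Poisson intervals as bars. At coding gene ends the points lie close together, at 129 and 115 in lipid overload, and outside any gene they lie apart, at 12.8 and 4.46.

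Peaks were also higher and lay on more local background over the 3 chromosomes pooled, but on chromosome 22 the median heights equalled those elsewhere. The median peak had 10 fragments in lipid overload and 6 in mock, against 8 and 5 elsewhere. Peaks of 20 or more fragments made up 14.7% (541 peaks) in lipid overload and 2.63% (26 peaks) in mock, against 9.51% and 1.23% elsewhere. On chromosome 19 the shares were 21.1% and 3.76%, on chromosome 17 10.5% and 1.66%, and on chromosome 22 7.41% and 1.71%. The median on chromosome 22 was 8 fragments in lipid overload and 5 in mock. The median local background was 0.983 fragments in lipid overload and 0.362 in mock, against 0.697 and 0.246 on the other chromosomes. The part of that background in the densities was not tested.

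Lipid overload had 3.73 times as many peaks as mock on these chromosomes (3.48 to 4.01) and 3.14 times on the others (3.05 to 3.23). The 3 chromosomes gave the highest of the 23 ratios, 3.87 on chromosome 17, 3.70 on 22 and 3.63 on 19, followed by 3.43 on chromosome 11. At gene ends the ratio was 4.19 (3.70 to 4.76), against 3.65 elsewhere, but it was also 4.16 on chromosomes 4, 13 and 18 and 4.22 on chromosome 20, and 3.42 on chromosome 22. Away from gene ends it was 3.52 (3.23 to 3.84), against 2.95. The gap was not seen among stronger peaks. Among peaks with a −log10 q of at least 5 the ratio was 7.70 on the 3 chromosomes and 8.08 elsewhere, and among peaks with a fold of at least 5 it was 4.50 and 4.47. The depth of the libraries and the treatment cannot be told apart in these ratios.

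Many of the mock peaks lay under a lipid-overload peak. The number was 525 of 988 (53.1%, 49.97 to 56.3), against 42.5% on the other chromosomes. Chromosome 19 had 61.9%, chromosome 17 51.0% and chromosome 22 34.9%. At gene ends the share was 81.0% on the 3 chromosomes and 80.5% elsewhere, and away from them 40.4% and 28.4%. In the other direction 523 lipid-overload peaks overlapped a mock peak (14.2%), near the 13.5% of the other chromosomes. These 523 had a median of 20 fragments, against 9 for the rest, and elsewhere the medians were 16 and 8. All 26 mock peaks of 20 or more fragments were in the lipid-overload list, as were 83 of 84 on the other chromosomes.

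Of the 2837 coding genes, 1340 were marked in lipid overload (47.2%, 45.4 to 49.1) and 357 in mock (12.6%, 11.4 to 13.9). Over all 19821 coding genes of the genome the shares were 43.4% and 13.4%. Marked in lipid overload only were 1021 genes (36.0%), where the genome-wide share was 31.4%. Both lists marked 319 genes (11.2%, genome-wide 12.1%). Marked in mock only were 38 (1.34%, genome-wide 1.34%), and 1459 were marked in neither (51.4%, genome-wide 55.2%). Chromosome 17 had 48.1% of its genes marked in lipid overload and 11.4% in mock, chromosome 19 47.4% and 13.2%, and chromosome 22 43.9% and 14.0%. These shares are near the background, while chromosomes 4, 13 and 18 had 29.2% and 7.64%.

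Among the gene-end peaks in both lists, the best-ranked on chromosome 17 lay at gene starts. PRR11 and the kinetochore gene SKA2 shared one of 48 fragments in lipid overload and 31 in mock. FXR2, an RNA-binding protein gene that adjoins SHBG, had 55 fragments in lipid overload (41.4 to 71.6) and 14 in mock (7.65 to 23.5). TMEM97, the sigma-2 receptor, which takes part in cholesterol transport, had 42 (30.3 to 56.8) and 22 (13.8 to 33.3). The gene-end peaks without a mock counterpart that ranked best by q were at RAB5C, an early endosome GTPase, with 31 fragments (21.1 to 44.0), at CTDNEP1, a phosphatase that restrains lipid synthesis at the nuclear envelope, with 32, at TRAF4 and NEK8 with 38, and at EIF4A1, a translation initiation helicase, with 31. CTDNEP1 shares its peak with ELP5. Away from gene ends the best-ranked peak was chr17:43246452-43246792 (hg38), outside any gene, with 97 fragments in lipid overload (78.7 to 118) and 25 in mock (16.2 to 36.9). In both lists it ranked above the peaks at PRR11, FXR2 and TMEM97.

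Chromosome 19 had the highest peaks of the 3 chromosomes among those named. The start of MBOAT7, which remodels phosphatidylinositol and adjoins the splicing endonuclease gene TSEN34, had 82 fragments in lipid overload (65.2 to 102) and 28 in mock (18.6 to 40.5), in a peak 1221 bp wide. TOMM40 and ELL, a transcription elongation factor, stood above it, with 161 and 116 fragments in lipid overload and 113 and 61 in mock. Of the best-ranked gene-end peaks without a mock counterpart, GIPC1 had 37 fragments (26.1 to 51.0) and MPND 40 (28.6 to 54.5). IZUMO4 and MOB3A shared one of 39, and that at the 3′ end of GPR108 had 50. The best-ranked mock-only gene-end peak, at the 3′ end of ZC3H4, had 8. Inside JAK3, a cytokine receptor kinase, a peak away from gene ends had 86 fragments in lipid overload (68.8 to 106) and 19 in mock (11.4 to 29.7).

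On chromosome 22 PMM1, a phosphomannomutase gene, had 54 fragments in lipid overload (40.6 to 70.5) and 12 in mock (6.20 to 21.0). GTPBP1, a GTP-binding protein of RNA turnover, had 39 and 14, and MCM5, a subunit of the replicative helicase, 28 and 11. Among the best-ranked gene-end peaks in lipid overload only, that at DGCR2 had 41 fragments (29.4 to 55.6). PI4KA, a phosphatidylinositol kinase, shared a peak of 29 with SNAP29, YPEL1 had 28 and DUSP18 24. The best-ranked mock-only gene-end peak was at ARHGAP8, with 7. Away from coding gene ends the best-ranked peak lay in SERHL, a transcribed pseudogene, with 40 fragments in lipid overload and 9 in mock.

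Lists made up mostly of genes that every cell uses had higher shares than the coding genes of the 3 chromosomes at large. The latter had 47.2% in lipid overload and 12.6% in mock. In mock the intervals of the proteasome, ribosomal and mitochondrial lists, with lower bounds of 7.49%, 9.69% and 10.7%, included 12.6%, and that of RNA polymerase II and Mediator began at 12.8%. All 9 proteasome genes were marked in lipid overload and 3 in mock, with 24 and 10 fragments at PSMC4 and 16 and 6 at PSMD3. Of 18 cytosolic ribosomal protein genes, 14 were marked in lipid overload and 5 in mock, with 17 and 8 fragments at RPS19. Of 14 genes of RNA polymerase II and Mediator, the complex that links it to activators, 11 and 5 were marked, with 27 and 10 at MED26 and 29 and 5 at MED11. For 34 genes of the mitochondrial ribosome and respiratory chain the counts were 24 and 8, with 77 and 24 fragments at NDUFA11, a complex I subunit, and 29 and 6 at ATP5MC1, of the ATP synthase.

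Among 25 genes of the DNA damage response and its chromatin factors, 19 were marked in lipid overload and 7 in mock. USP22, a deubiquitinase of the SAGA complex, had 41 fragments in lipid overload and 9 in mock, and TOP2A, the topoisomerase that cuts both DNA strands, had 20 and 5. XRCC1, the scaffold of single-strand break repair, had 25 in lipid overload only. The genes without a gene-end peak in either list included LIG3, EME1, RAD51C, ERCC1 and TOP3B. These shares were like those of the housekeeping lists above, and no test between lists was made.

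Lipid metabolism genes were marked about as often as other genes of the 3 chromosomes, 16 of 32 in lipid overload and 6 in mock. By chromosome the counts differed. They were 9 of 10 genes on chromosome 17 in lipid overload and 2 in mock. Chromosome 19 had 5 of 17 and 3, and chromosome 22 had 2 of 5 and 1. Coding genes at large had 48.1% and 11.4% on chromosome 17, 47.4% and 13.2% on 19, and 43.9% and 14.0% on 22. SREBF2, the sterol-sensing transcription factor, had 28 fragments in lipid overload and 5 in mock, and FDXR, which passes electrons to steroid-making enzymes, 27 and 7. Fatty acid synthesis genes of chromosome 17 had gene-end peaks in lipid overload only. These had 24 fragments at FASN, 19 at ACACA, 16 at SREBF1 and 14 at ACLY. Of all coding genes on chromosome 17, 37.5% were marked in lipid overload only. Away from the gene ends, a mock peak lay inside ACACA and another inside ACLY. APOE, APOC1, APOC2, PLIN4, PLIN5, LIPE and PPARA had no gene-end peak in either list. These genes, and FASN, ACACA, SREBF1 and ACLY, were named after their values were seen.

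In lipid overload liver genes were seldom marked: 5 of 31 (16.1%, 5.45 to 33.7), against 47.2% of all coding genes on these chromosomes. In mock 2 were marked (6.45%, 0.791 to 21.4), and this interval included the 12.6% of all coding genes there. Those 2, SERPINF1 with 4 fragments and SERPIND1 with 5, were marked in mock only. CEBPA, a hepatocyte transcription factor, had 18 fragments, APOC4 9 and the cytochrome P450 gene CYP2B6 6, all in lipid overload only. SHBG carried the peak that it shares with the start of FXR2.

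Several tandem families had few or no marked genes, where all coding genes of the 3 chromosomes had 47.2% in lipid overload and 12.6% in mock. No gene-end peak was listed in either condition for 15 kallikrein genes, 10 HOXB genes or 6 skeletal and developmental myosin genes. Keratin and keratin-associated genes had 3 of 62 marked in lipid overload (4.84%, 1.01 to 13.5) and none in mock. The 3 were KRT17, with 25 fragments, KRT36 with 9 and KRTAP4-11 with 7. Of 32 olfactory receptor genes none was marked in lipid overload and 1 in mock. Among 17 CC chemokine genes CCL3L3, with 8 fragments, was marked, and among 27 KIR, LILR and SIGLEC genes LILRB5, with 8, both in lipid overload only. The CEACAM and PSG genes had 4 of 22 marked in lipid overload and 1 in mock, with 8 and 4 fragments at CEACAM1. APOBEC3C, with 7 and 4 fragments, was marked in both lists among 13 APOBEC3 and APOL genes. The upper bounds for these families lay below 47.2% in lipid overload. In mock the intervals of all but the keratin list included 12.6%, with upper bounds of 21.8% for kallikrein, 30.8% for HOXB and 45.9% for myosin genes. Members of such families are close copies of each other, and reads from them can be split or lost in alignment.

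Zinc finger genes, most of them on chromosome 19, had a larger share in lipid overload than these families. The list goes by symbol. Many of its members encode C2H2 proteins that repress transposable elements, and it also holds ZFP36, an RNA-binding protein of another zinc finger type. In all, 96 of 239 were marked in lipid overload (40.2%, 33.9 to 46.7) and 15 in mock (6.28%, 3.55 to 10.1). Chromosome 19 had 87 of 224 marked in lipid overload (38.8%) and 13 in mock (5.80%). ZNF576 had 34 fragments, ZNF524 33, ZNF557 26 and ZNF543 23, each in lipid overload only. For genes of chromosome 19 with a known start, 41.1% of 192 zinc finger genes and 43.7% of 922 others had a lipid-overload peak at the start. In mock the shares were 6.25% and 13.2%. The difference between the conditions in this respect was not tested.

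**Figure D4:**
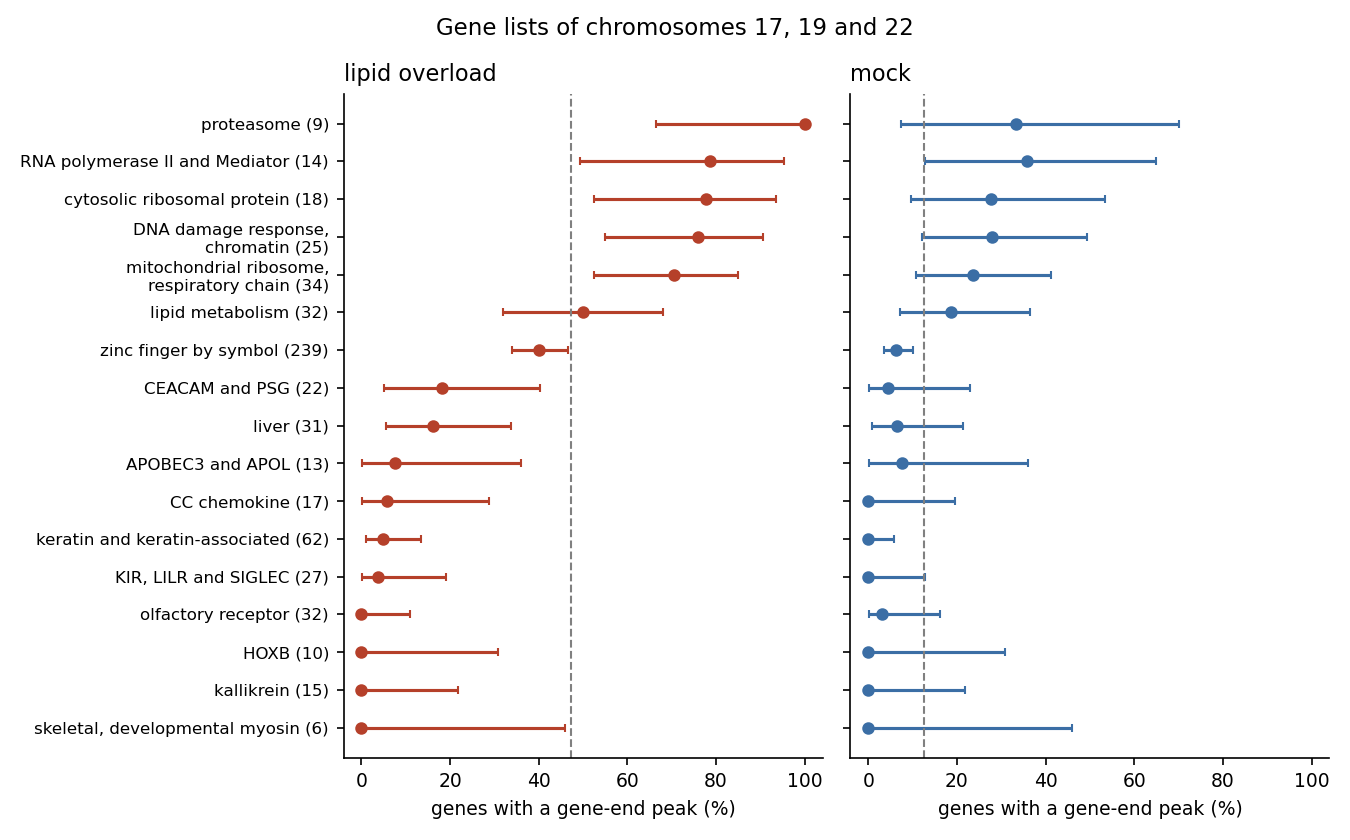
Share of the genes of each list with a gene-end peak, lipid overload on the left and mock on the right, with 95% binomial intervals as bars and the number of genes in brackets. The dashed line is the share over all 2837 coding genes of the 3 chromosomes, 47.2% in lipid overload and 12.6% in mock. Lists lie between 100% for the proteasome genes and 0 for kallikrein, HOXB, olfactory receptor and myosin genes in lipid overload.

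Which end of a gene the peaks lay at could be read on chromosome 19, where 1114 of 1328 coding genes (83.9%) have a RefSeq start. On chromosomes 17 and 22 the share with a start was 71.3% and 68.5%, below the 80% set as a minimum, so the same check was void there. A peak within 1 kb of the start was listed for 482 genes in lipid overload (43.3%, 40.3 to 46.2) and 134 in mock (12.03%, 10.2 to 14.1). At the 3′ end the counts were 127 (11.4%) and 26 (2.33%). Summits gathered just before the start: those within 1 kb had a median position of −85 bp in lipid overload and −97 bp in mock, and 68.4% and 61.3% of them lay within 250 bp. These were 474 of 1641 lipid-overload summits and 124 of 452 mock summits.

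Start peaks went with CpG-rich promoters. Among chromosome 19 genes with a CpG ratio of at least 0.75, 65.1% had a start peak in lipid overload (60.6 to 69.4) and 16.3% in mock (13.04 to 19.9). Between 0.5 and 0.75 the shares were 47.7% and 14.5%, between 0.25 and 0.5 12.7% and 2.93%, and below 0.25 10.7% and 6.92%. The median ratio was 0.735 over 15812 coding genes of the genome and 0.695 over the 1114 chromosome 19 genes with a known start. It was 0.833 for the 482 of these with a lipid-overload start peak and 0.494 for the 632 without. This is the contrast seen between the sequences of TOMM40 or GIPC1 and that of CEACAM21.

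Short motifs were also counted in the same 250 bases. GGGCGG, the GC box bound by SP factors, was found in 75.3% of chromosome 19 promoters with a lipid-overload start peak. It was found in 54.7% of those without, and in 55.8% of all coding promoters of the genome. CCAAT, bound by NF-Y, was found in 49.0%, 31.3% and 34.4% in the same order. TATAAA was found in 4.15%, 8.23% and 9.36%. CCGGAAG, an ETS site, was found in 15.4%, 11.9% and 11.7%, and CACGTG, an E-box, in 9.13%, 5.54% and 7.79%. The NRF1 motif was found in 2.49%, 1.27% and 1.49%, and ATGGCGGC, a YY1 site, in 2.70%, 1.27% and 1.47%. TGANTCA, an AP-1 site, was found in 5.39%, 3.96% and 5.00%, and TGACGTCA, a cyclic AMP response element, in 3.11%, 2.69% and 2.29%. Over all 1114 chromosome 19 promoters, GGGCGG was found in 63.6%, CCAAT in 39.0% and TATAAA in 6.46%. Both strands were searched. Motifs rich in CpG depend on base composition, and a match is not a bound site.

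**Figure D5:**
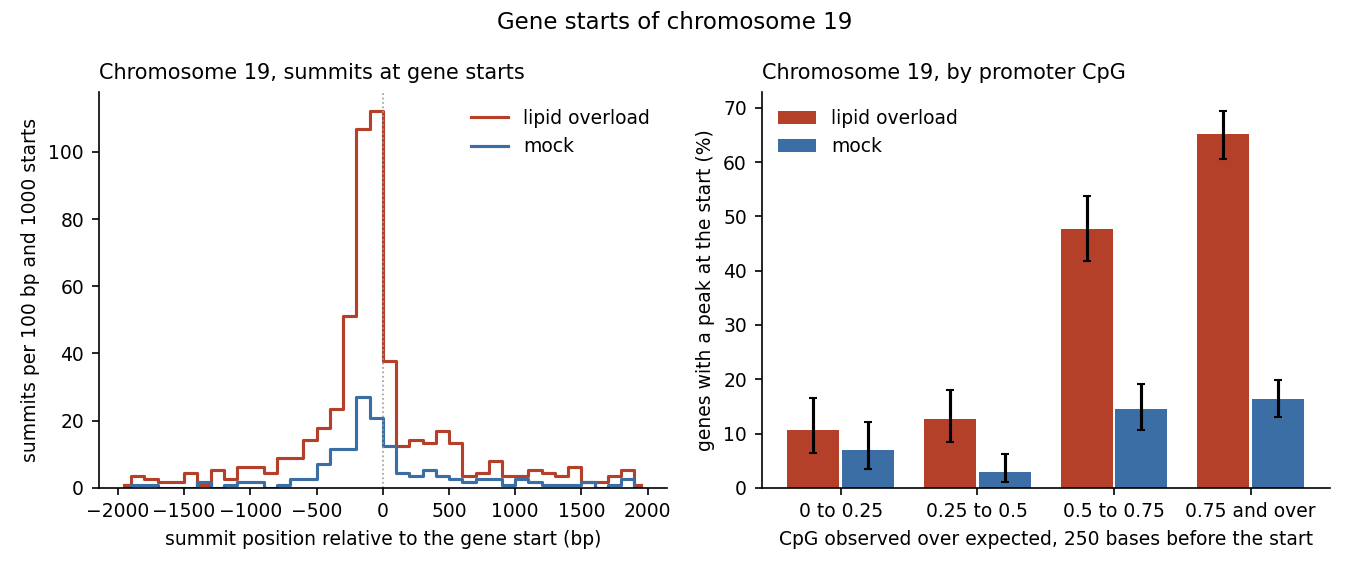
Left, summits per 100 bp and 1000 starts around the starts of 1114 chromosome 19 genes, by position in bp (negative before the start). Right, share of these genes with a start peak by the CpG ratio of the 250 bases before the start, with 95% binomial intervals as bars, lipid overload left of mock. Both lists peak just before the start, and the lipid-overload share is 65.1% in the class with most CpG and 10.7% in the class with least.

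The distances in the rule left out 135 lipid-overload and 49 mock peaks on chromosome 17, 120 and 44 on chromosome 19, and 80 and 26 on chromosome 22. Just outside the rule at the chromosome ends, the last 1 Mb held 102, 107 and 50 lipid-overload peaks and 34, 39 and 12 mock peaks on chromosomes 17, 19 and 22. Just inside it, the next 1 Mb held 103, 81 and 10 lipid-overload peaks and 14, 19 and 3 mock peaks. Within 3 Mb of the centromere there were 33, 13 and 30 lipid-overload and 15, 5 and 14 mock peaks, and from 3 to 6 Mb 119, 30 and 125 lipid-overload and 34, 10 and 39 mock peaks.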

How the data were processed

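γH2AX was mapped by CUT&Tag in HepG2 cells, and the peak lists of the 2 γH2AX libraries were used, 1 per library, so peaks were called per sample. The sample labels gave the groups. The submitters' processing notes name build hg38 and the tools BWA, FastQC, deepTools and MACS2 2.1.2, without settings. The authors deposited for each peak a position, a score, a fold enrichment (a linear ratio), −log10 p and −log10 q. All are the authors' own values, used here to rank, filter and describe the peaks of 1 list at a time. The lowest deposited −log10 q was 1.3 in both lists.

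Fragments over a summit and the local background were solved from the deposited fold and −log10 p under the formulas of MACS2. A whole number of fragments was found for 100% of the peaks described, within 0.0001 in log10 p, and the step was tested on simulated data. Fragments copied by PCR are not independent molecules, which the intervals do not cover. The lists give no total of reads per library.

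Genes came from the RefSeq gene table of GRCh38.p14 (the coordinates of hg38). Of 59098 genes, 679 listed out of place by over 1 Mb, 153 of them protein-coding, were taken to belong to other scaffolds and left out. Densities use 1 Mb windows with at least a gene or a peak in them, clipped to the distance rule. A peak was placed at a coding gene end (1 kb either side), else inside a coding gene, a lncRNA gene, a pseudogene, another gene or outside any gene. Lists overlap at 1 bp or more. Starts and the 250 bases before them came from RefSeq promoter sequences, matched by gene ID for 2179 of the 2837 coding genes (76.8%).

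The members and gene lists were chosen with earlier results of these data known. Lists were then corrected after their values were seen: 5 genes that do not belong to the functions named were removed, among them PSMC3IP, POLR2E, CDC6 and HMGXB4. Of the 5, 4 were marked in lipid overload and 1 in mock. Named genes were taken by rank on −log10 q, then fold. Per chromosome these were the 4 best-ranked gene-end peaks in lipid overload only, the 3 in both lists with the best of their worse ranks, the best-ranked in mock only and the best-ranked away from gene ends. Added to these were genes of the 2 densest windows and of the window with fewest peaks among those with 10 or more coding genes, and up to 4 members of each list. A few genes chosen this way are not reported here. Alternatives were a −log10 q or a fold of at least 5, merging peaks within 1 kb, equal list lengths, no distance rule, gene ends of 3 kb, 2 other overlap rules, windows of 500 kb, and leaving out each chromosome. Python 3.11.15 with numpy 2.4.6, pandas 2.3.3, scipy 1.17.1 and matplotlib 3.10.9 was used.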

Additional observations from a re-analysis of the deposited data

How the results depend on the processing

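No paired analysis was possible because each group has 1 sample. The 12 alternatives gave 82 values, of which 39 stayed within the counting interval or, for shares of genes and medians of windows, within 1.5 times the reported value. Density stayed above that of the other chromosomes in all 15 values. The chromosomes were selected on this density, so these values describe it and do not test it. The lipid-overload to mock ratio exceeded that of the other chromosomes in 6 of 7. With a fold of at least 5, counted among the 6, it was nearly equal, 4.50 against 4.47. With a −log10 q of at least 5 it was lower, 7.70 against 8.08, so the gap was not seen among stronger peaks. No replicate limits any value, and mock peaks rest on few fragments.

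With a −log10 q of at least 5, density was 10.4 peaks per Mb in lipid overload and 1.35 in mock, its ratio to other chromosomes 3.35 and 3.52, the gene-end share 50.4% and 48.4%, and the share of genes marked in mock 4.41%. The overlap was 12.2% of lipid-overload and 93.0% of mock peaks, and the ratio of the lists 7.70. With a fold of at least 5 the densities were 13.2 and 2.94, the ratios 3.05 and 3.03, the gene-end shares 45.9% and 40.6%, the share of genes marked in mock 8.07%, the overlaps 16.7% and 74.7%, and the ratio of the lists 4.50. Merging peaks gave 21.7 lipid-overload peaks per Mb.

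With lists of equal length the lipid-overload density ratio was 3.48, the gene-end share 53.0%, the share of genes marked 29.96%, and the overlaps 29.9% of lipid-overload and 41.3% of mock peaks. Without the distance rule the lipid-overload density ratio was 2.62. Gene ends of 3 kb held 46.5% of lipid-overload and 40.1% of mock peaks. Overlap of 50% of each peak gave 8.82% and 32.9%, and peaks within 1 kb 16.9% and 58.3%.

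Without chromosome 17 the density ratio was 3.29 in lipid overload and 2.83 in mock. Without chromosome 19 it was 2.27 and 1.87, the lipid-overload gene-end share 33.1%, and the overlaps 11.98% and 45.7%. Without chromosome 22 the lipid-overload density ratio was 2.93, the gene-end share 37.4%, and the overlap of mock peaks 57.1%. The causes of these shifts were not tested.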

Other observations

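Some genes of the 3 chromosomes, many of them long, held several peaks. Inside coding genes, away from their ends, there were 14.2 lipid-overload and 3.96 mock peaks per Mb on chromosome 17. The densities were 25.9 and 7.96 on chromosome 19, and 15.4 and 3.51 on chromosome 22. At such densities a long gene can hold several peaks, and the numbers below were not corrected for gene length. They count every peak that overlaps the gene, also at its ends. The genes named here are among those with most lipid-overload peaks overlapping them and were chosen after their values were seen. On chromosome 17, ABR, 226 kb long, held 12 lipid-overload and 3 mock peaks, RAP1GAP2, 282 kb, held 11 and 3, and RBFOX3, a neuronal splicing factor gene of 576 kb, held 10 and 1. On chromosome 19, GNG7, a G protein subunit gene, held 9 and 1, and NFIC, a nuclear factor I gene, 9 and 2. HOOK2, 29.3 kb long, and SBNO2 held 7 lipid-overload peaks each and no mock peak. On chromosome 22, KIAA1671, 245 kb long, held 8 and 1, and TANGO2, 50.1 kb, and TBC1D22A, 413 kb, held 7 each with no mock peak. Of these genes, ABR, RAP1GAP2, RBFOX3, GNG7, NFIC, SBNO2 and TANGO2 had no lipid-overload peak at a gene end.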
